A study of Mus musculus with 12 samples.

Results

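The RANKL, OPG and CSF1 axis is the set of signals by which bone-forming cells and osteocytes instruct the making of osteoclasts. It was read here as 7 genes chosen by symbol from the deposited tables. The genes were Tnfsf11 (RANKL), Tnfrsf11a (RANK), Tnfrsf11b (osteoprotegerin, OPG), Traf6, Csf1, Csf1r and Il34. All 7 were found in both tables, which held 18778 gene symbols for the metaphysis, 19067 for the diaphysis and 18335 in common.

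The libraries were made from total RNA of the femurs of male mice of mixed background, aged 5 weeks. The metaphysis, the flared end of the shaft that holds trabecular bone and borders the growth plate, was separated from the diaphysis, the tube of cortical bone with its marrow. In each region 3 wild-type libraries (WT, Dlx3+/+) were set against 3 libraries of Dlx3Oc-cKO mice (cKO below), so that 4 groups made 12 libraries. Dlx3 is a homeobox transcription factor of bone-forming cells. The labels give only "Oc" for the deleting allele. In the published line of that name, Cre recombinase is driven by the osteocalcin promoter, which is active in mature osteoblasts and osteocytes, so the deletion is aimed at those cells and not at osteoclasts, marrow or cartilage. The title of each library opens with a number of its own, but no label says that the libraries came from separate animals, so the p-values measure the spread between libraries, which may be technical in part.

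RANKL is a TNF-family ligand carried by osteoblast-lineage cells, osteocytes and hypertrophic chondrocytes. It binds RANK on osteoclast precursors, RANK recruits the adaptor TRAF6, and the signal that follows switches on the osteoclast genes through NF-kB and NFATc1. OPG is a secreted decoy receptor that binds RANKL and keeps it from RANK, so the balance of RANKL to OPG is a common measure of the drive to resorb bone. CSF1 and IL-34 are unrelated in sequence but share the receptor CSF1R, through which they keep monocytes, macrophages and osteoclast precursors alive.

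The unit is RPKM (reads per kilobase of a transcript for each mega of mapped reads), summed over the transcripts of a gene, and can be compared between genes because they are per length. Depth estimated from the spacing of the lowest values ran from 24.2 to 34.3 M reads in the metaphysis libraries and from 18.3 to 52.8 M in those of the diaphysis (M stands for mega). Dlx3 checked the labels: it stood at 9.11 ± 0.86 RPKM in WT and 2.67 ± 0.64 in cKO metaphysis, and at 7.97 ± 4.93 and 1.16 ± 0.39 in the diaphysis (mean ± SD, n = 3 each), without overlap in either region. Even so, Dlx3 did not pass the adjusted test of the diaphysis, as given below. WT replicate 1 of the diaphysis stood apart from the other libraries. Globin took 32.6% of its summed RPKM, against 15.1% to 26.5% in the other diaphysis libraries, and its 15 osteoblast markers summed to 5042 RPKM, against 20291 and 28977 in the other WT libraries. The diaphysis difference of each gene of the axis is therefore given with and without it. Whole tissue was sequenced, so fewer cells of a type and less RNA per cell cannot be told apart.

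The stretch upstream of 4 of the 7 genes was in the RefSeq promoter table used here. Of these 4, Tnfsf11, Csf1 and Tnfrsf11a were called higher in cKO metaphysis, so the 250 bases before the start of each are printed. They are RefSeq sequence of the build GRCm38.p6, while the deposited tables are named in the submitters' processing notes as mm9. The first lies at chr14:78308044-78308293 on the minus strand, the next at chr3:107760470-107760719 on the minus strand, and the last at chr1:105780473-105780722 on the plus strand. Each reads 5′ to 3′ towards the gene, and capitals mark matches to the motifs named below, the E-box apart.
Tnfsf11: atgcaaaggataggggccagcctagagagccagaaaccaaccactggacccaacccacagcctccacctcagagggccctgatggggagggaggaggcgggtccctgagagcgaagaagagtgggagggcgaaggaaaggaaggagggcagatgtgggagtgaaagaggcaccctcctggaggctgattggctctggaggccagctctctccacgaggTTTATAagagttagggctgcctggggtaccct
Csf1: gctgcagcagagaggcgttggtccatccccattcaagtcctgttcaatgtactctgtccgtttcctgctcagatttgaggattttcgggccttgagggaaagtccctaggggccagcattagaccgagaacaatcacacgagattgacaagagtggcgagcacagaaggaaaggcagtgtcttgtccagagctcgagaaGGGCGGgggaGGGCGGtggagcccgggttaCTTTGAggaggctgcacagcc
Tnfrsf11a: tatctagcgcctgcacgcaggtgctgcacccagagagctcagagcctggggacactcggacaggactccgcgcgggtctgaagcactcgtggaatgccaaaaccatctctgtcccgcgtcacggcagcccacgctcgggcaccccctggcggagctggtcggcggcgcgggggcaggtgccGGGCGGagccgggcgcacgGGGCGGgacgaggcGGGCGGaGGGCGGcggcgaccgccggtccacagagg
The motifs were searched by letter on both strands, and positions count back from the start of the gene, whose preceding base is -1. No match of a motif overlapped a match of another. Over the 32851 promoters of the table, at the same length, the share with at least 1 match was 12.4% for the TATA box (TATAAA), 14.0% for RUNX (TGTGGT), 25.0% for the homeobox letters TAATT and 6.75% for AP-1 (TGANTCA). It was 32.7% for the GC box of SP and KLF factors (GGGCGG), 13.8% for TCF and LEF (CTTTGA), 23.3% for PU.1 and other ETS factors (GAGGAA) and 66.2% for the E-box (CANNTG).

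The 3 promoters differed in make-up. That of Tnfsf11 held 4 CG pairs at 60.4% GC and a TATA box in reverse (TTTATA, -32 to -27). That of Csf1 held 10 CG pairs at 56.4% GC, GC boxes from -51 and -41, and a TCF and LEF match from -21. That of Tnfrsf11a held 31 CG pairs at 73.6% GC and 4 GC boxes between -69 and -24, with no TATA box. For comparison the median GC over all promoters of the table was 52.4%. The Traf6 promoter, at 56.4% GC and 13 CG pairs, held matches for ETS factors from -161 and -106, GC boxes from -100 and -61, and a RUNX match in reverse from -73. None of the 4 windows held TAATT or the AP-1 letters, which says nothing of factors that bind elsewhere or to other letters. The shorter TAAT was not searched, and the Csf1 window (in reverse, ATTA) and the Traf6 window hold it. Tnfrsf11b, Il34 and Csf1r, the other genes of the axis, had no entry among these promoters. Tnfrsf11b and Csf1r were also called higher in cKO metaphysis, so the printed promoters are not those of all the genes that rose.

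In the metaphysis RANKL and CSF1, their receptors RANK and CSF1R, and the decoy receptor OPG were all higher in cKO at the level of messenger RNA. Csf1r, Tnfsf11, Csf1, Tnfrsf11a and Tnfrsf11b rose, to between 1.57 and 2.60 times the WT mean, and neither Traf6 nor Il34 passed the test. All 7 genes passed the filter of at least 1 RPKM in 3 libraries. That is 5 of 7 genes called, all higher, where 11.4% of the 12641 genes tested were called and 7.51% were called higher. The count rests on single libraries: 1 of the 7 genes, Csf1, was called without cKO replicate 3 (105 of 12515 genes tested called) or without WT replicate 2 (243 of 12533). Without WT replicate 1 it was 2 of the 7 (188 of 12538), and 4 without any 1 of the other 3 libraries. With the spread shared by all 12 libraries 0 of the 7 were called, beside 7 of 12321 genes. The same 5 genes had no overlap between WT and cKO libraries, with cKO above, where 37.1% of all genes tested had none in either direction and 18.7% with cKO above. The median difference of the 7 genes was 0.74 on the log2(RPKM + 0.1) scale, beside -0.036 for all genes tested. Calls are from limma with a mean-variance trend and Benjamini-Hochberg adjustment over all genes tested (threshold 0.05).

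**Figure D1:**
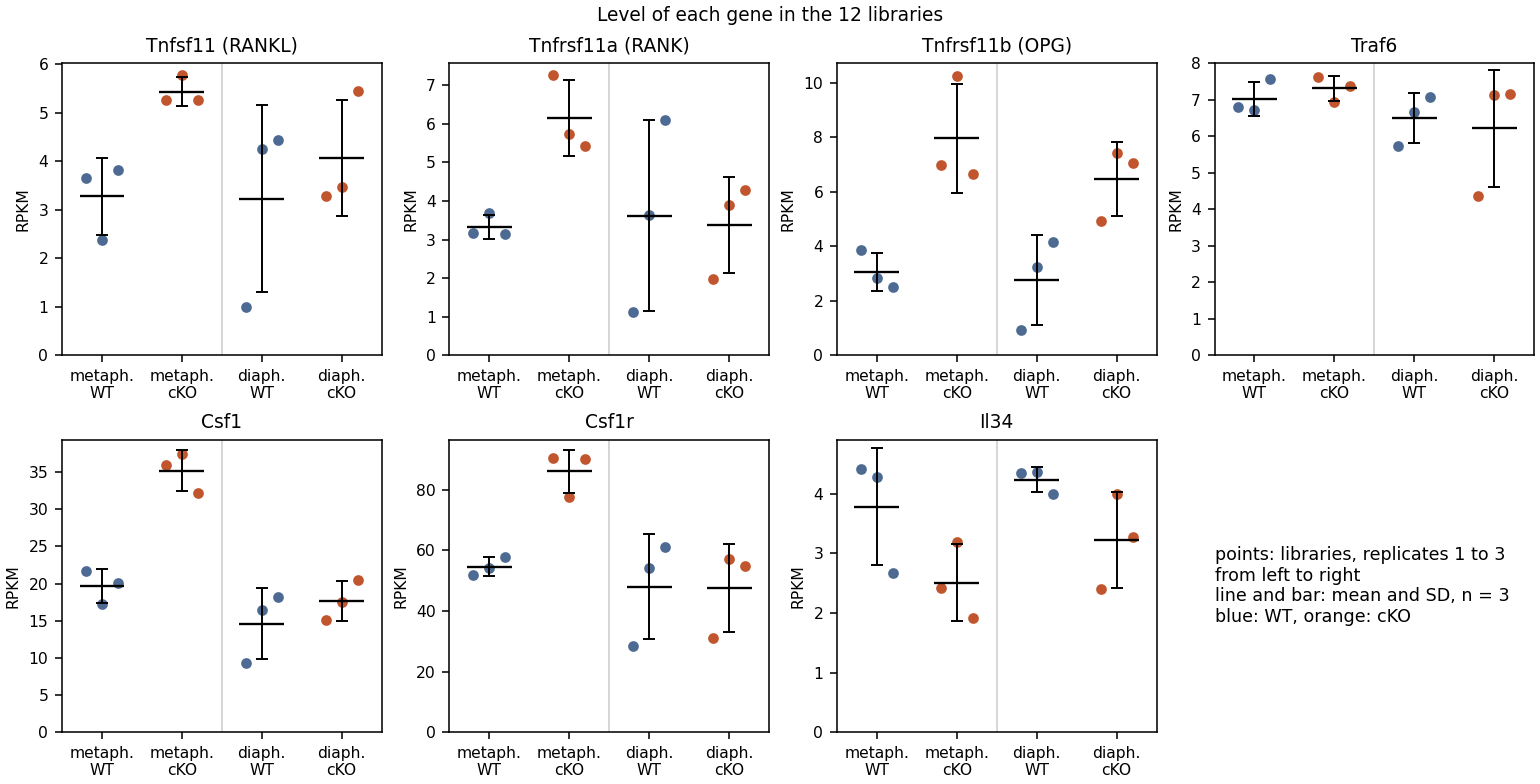
Level in RPKM of each of the 7 genes in every library of metaphysis (metaph.) and diaphysis (diaph.), with WT in blue, cKO in orange, and the mean and SD of 3 libraries as line and bar. In the metaphysis the cKO points of Tnfsf11, Tnfrsf11a, Tnfrsf11b, Csf1 and Csf1r all lie above the WT points, while in the diaphysis only those of Tnfrsf11b do.

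Tnfsf11 encodes RANKL and lies on chromosome 14, 78677252 to 78707850, minus strand, in NCBIM37, the assembly that mm9 carries. In the metaphysis it was at 3.66, 2.37 and 3.81 RPKM in WT replicates 1 to 3 and at 5.25, 5.78 and 5.27 RPKM in cKO. Every cKO library lay above every WT library, and the lowest WT library was replicate 2. The log2 difference was 0.74 ± 0.19 (SE; limma, Benjamini-Hochberg adjusted p = 0.0472). The call sits at the edge of the threshold: it was lost in 10 of 16 other settings, among them each of the 6 in which 1 library was left out, where adjusted p ran from 0.0651 to 0.111.

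RANKL in the diaphysis spread more widely. WT replicates 1 to 3 stood at 1.00, 4.24 and 4.43 RPKM and cKO replicates at 3.29, 3.46 and 5.44 RPKM, so that the groups overlapped and WT replicate 1 was the lowest of all. The lowest value rests on about 57.3 reads. A log2 difference of 0.54 ± 0.54 did not pass (limma, Benjamini-Hochberg adjusted p = 1.00), and without WT replicate 1 it turned to -0.13.

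Tnfrsf11a encodes RANK, the signalling receptor of RANKL on osteoclasts and their precursors, and lies on chromosome 1, 107677300 to 107744558, plus strand. Its metaphysis values were 3.17, 3.69 and 3.14 RPKM in WT and 7.27, 5.73 and 5.43 RPKM in cKO. The groups did not overlap, and WT libraries lay close together while cKO replicate 1 was the highest. The log2 difference was 0.85 ± 0.14 (limma, Benjamini-Hochberg adjusted p = 0.0171), and the call was lost with WT replicate 1, WT replicate 2 or cKO replicate 3 left out, with adjusted p up to 0.0622.

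In the diaphysis RANK ran from 1.13 over 3.64 to 6.09 RPKM in WT and from 1.97 over 3.89 to 4.30 RPKM in cKO, and the highest and the lowest library were both WT. RANK differed by 0.12 ± 0.59 on the log2 scale with all libraries and -0.54 without WT replicate 1, and neither passed the limma test (Benjamini-Hochberg adjusted p = 1.00). Without cKO replicate 1, the lowest cKO library, the difference was 0.46.

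Tnfrsf11b encodes OPG, the decoy that osteoblast-lineage cells secrete, and lies on chromosome 15, 54082174 to 54110039, minus strand. In the metaphysis WT libraries held 3.86, 2.83 and 2.52 RPKM and cKO libraries 6.97, 10.3 and 6.67 RPKM. The groups did not overlap, and cKO replicate 2 was the highest library for OPG as it was for RANKL. The log2 difference of 1.34 ± 0.22 was the largest of the 7 genes (limma, Benjamini-Hochberg adjusted p = 0.0161). Without WT replicate 2 or cKO replicate 3 adjusted p was 0.0586 and 0.0513.

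OPG was also the only gene of the axis whose diaphysis groups did not overlap. WT libraries held 0.943, 3.24 and 4.15 RPKM and cKO libraries 4.94, 7.44 and 7.08 RPKM, with WT replicate 1 far below the others. The difference of 1.40 ± 0.50 had an unadjusted p of 0.0249 and did not pass the limma test once adjusted (Benjamini-Hochberg adjusted p = 1.00). Left without WT replicate 1 the log2 difference was 0.78 ± 0.23, again with cKO higher, and the limma adjusted p was 0.682. With limma's array weights, which give less weight to libraries that vary more, it was 1.10 ± 0.17 (Benjamini-Hochberg adjusted p = 0.0375). Those weights did not fully converge, and 58 of the 12540 genes tested were called under them. Without weights 0% of the 12540 diaphysis genes tested were called, and 3.03% had groups that did not overlap, 2.24% with cKO above.

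The level of RANKL relative to OPG within a library does not depend on how that library was scaled. In the metaphysis the ratio Tnfsf11 to Tnfrsf11b was 0.949, 0.838 and 1.51 in WT and 0.753, 0.563 and 0.790 in cKO. All 3 cKO libraries lay below all 3 WT libraries, although the gap between the nearest libraries was small and WT replicate 3 stood well above the rest. The mean was 1.10 ± 0.36 in WT and 0.702 ± 0.122 in cKO (SD, n = 3), a log2 difference of -0.61 ± 0.30, with p = 0.1 in an exact 2-sided permutation test. That is the smallest p that 3 libraries against 3 can give, so this test could not pass 0.05. Without WT replicate 3 the log2 difference was -0.36.

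The diaphysis gave the same order with a wider gap. WT ratios were 1.06, 1.31 and 1.07 and cKO ratios 0.667, 0.466 and 0.769, so that RANKL was the higher message in each WT library and OPG in each cKO library. Here WT replicate 1, low for both genes, had a ratio like that of the other WT libraries. Means were 1.15 ± 0.14 and 0.634 ± 0.154, and the log2 difference was -0.88 ± 0.24 (exact 2-sided permutation p = 0.1, again the smallest possible). It was -0.93 without WT replicate 1. The ratio of RANK to OPG was likewise lower in every cKO diaphysis library, at 1.26 ± 0.18 in WT and 0.510 ± 0.105 in cKO, and overlapped in the metaphysis at 1.13 ± 0.26 and 0.805 ± 0.242. The ratio of RANKL to RANK overlapped in both regions.

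**Figure D2:**
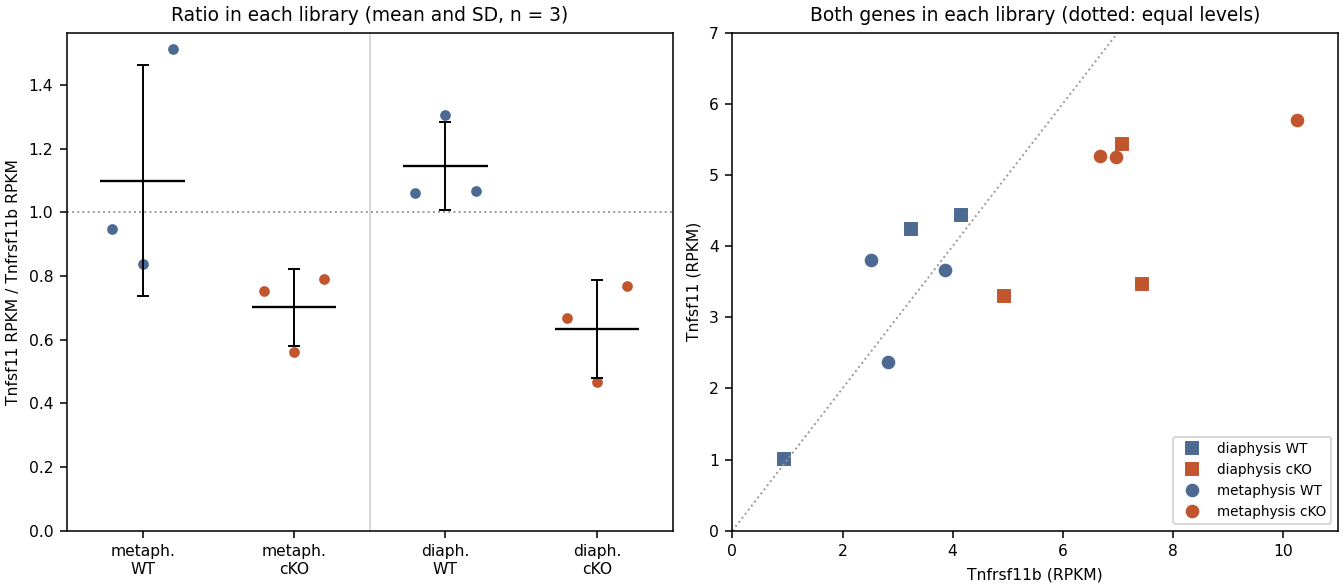
Left, the ratio of Tnfsf11 to Tnfrsf11b RPKM in each library of metaphysis (metaph.) and diaphysis (diaph.), with the mean and SD of 3 libraries and a dotted line at equal levels. Right, both genes in RPKM in the same 12 libraries, where the 6 cKO points (orange) lie on the OPG side of the dotted line of equal levels and the diaphysis WT squares (blue) on the RANKL side.

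Traf6 encodes the adaptor that links RANK to NF-kB and is also used by other receptors. It lies on chromosome 2, 101518586 to 101541826, plus strand. Its values hardly moved in the metaphysis, at 6.79, 6.71 and 7.56 RPKM in WT and 7.62, 6.94 and 7.36 RPKM in cKO. The groups overlapped throughout, and the log2 difference of 0.059 ± 0.096 did not pass (limma, Benjamini-Hochberg adjusted p = 0.715). Its 95% interval ran from -0.17 to 0.28, so a change of the size seen in RANK lies outside it. The diaphysis values were 5.74, 6.66 and 7.09 RPKM in WT and 4.36, 7.13 and 7.16 RPKM in cKO, again overlapping. The log2 difference there was -0.093 ± 0.23, and -0.18 without WT replicate 1. Without cKO replicate 1, the lowest library, it was 0.14.

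Csf1 encodes the growth factor that osteoblasts and stromal cells supply to the monocyte lineage, and lies on chromosome 3, 107543966 to 107563387, minus strand. In the metaphysis it stood at 21.7, 17.2 and 20.1 RPKM in WT and at 36.0, 37.4 and 32.2 RPKM in cKO. The groups were separated by more than the range within either. The log2 difference was 0.84 ± 0.11 (limma, Benjamini-Hochberg adjusted p = 0.0117), and Csf1 was the only gene of the axis called with each of the 6 libraries left out in turn, where adjusted p reached at most 0.0498. With the spread shared by all 12 libraries its limma adjusted p was 0.232 and the call was lost.

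Csf1 in the diaphysis stood at 9.25, 16.4 and 18.2 RPKM in WT and at 15.0, 17.6 and 20.5 RPKM in cKO, and the groups overlapped. Csf1 differed by 0.32 ± 0.27 on the log2 scale with all libraries and 0.022 without WT replicate 1. Neither passed the limma test (Benjamini-Hochberg adjusted p = 1.00).

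The tables held 3 RefSeq transcripts of Csf1, and the deposited files do not say how reads common to them were divided. NM_007778 carried the largest share in every group, at 74.5% ± 7.97 of Csf1 RPKM in WT and 78.6% ± 2.62 in cKO metaphysis, and 75.8% ± 1.03 and 66.2% ± 7.30 in the diaphysis (SD, n = 3). Its own level was 14.7 ± 2.83 RPKM in WT and 27.6 ± 1.41 in cKO metaphysis. The shares of NM_001113529 were 21.0% ± 10.2 and 15.6% ± 3.21 in the metaphysis and 16.6% ± 1.59 and 27.1% ± 8.63 in the diaphysis. The transcripts were not tested singly.

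Il34 encodes the other ligand of CSF1R, best known from skin and brain, and lies on chromosome 8, 113265729 to 113329824, minus strand. It was the only member whose mean was lower in cKO in both regions. Metaphysis values were 4.42, 4.28 and 2.66 RPKM in WT and 2.41, 3.19 and 1.91 RPKM in cKO, with WT replicate 3 inside the cKO range. The log2 difference of -0.57 ± 0.25 did not pass (limma, Benjamini-Hochberg adjusted p = 0.177). In the diaphysis WT libraries held 4.35, 4.37 and 3.99 RPKM and cKO libraries 2.40, 4.0 and 3.27 RPKM, and the highest cKO library just exceeded the lowest WT library. There the log2 difference was -0.41 ± 0.22, and -0.39 without WT replicate 1, which for this gene was not low. Without cKO replicate 1, the lowest diaphysis library for Il34, it was -0.22. These levels rest on 78.7 to 323 reads per diaphysis library.

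The 2 ligands of CSF1R thus stood in another proportion in cKO metaphysis. The ratio Csf1 to Il34 was 4.90, 4.02 and 7.55 in WT and 14.9, 11.7 and 16.8 in cKO, with no overlap. Means were 5.49 ± 1.84 and 14.5 ± 2.59, a log2 difference of 1.43 ± 0.31. In the diaphysis the means were 3.48 ± 1.24 and 5.64 ± 1.07, and the groups overlapped. These ratios were not tested.

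**Figure D3:**
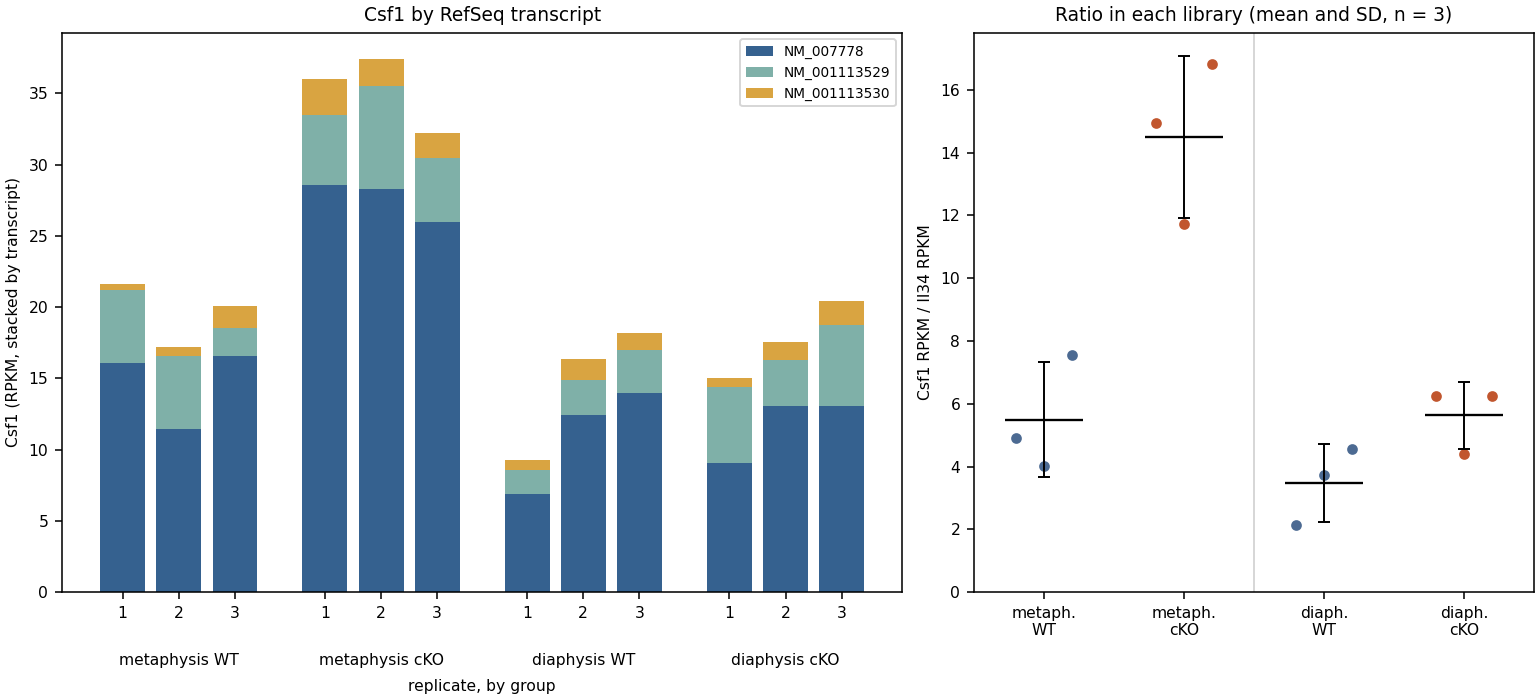
Left, Csf1 in each library in RPKM, stacked by the 3 RefSeq transcripts, for replicates 1 to 3 of each group. Right, the ratio of Csf1 to Il34 RPKM in each library of metaphysis (metaph.) and diaphysis (diaph.), with the mean and SD of 3 libraries; the cKO metaphysis libraries (11.7 to 16.8) lie above all others.

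Csf1r encodes the receptor tyrosine kinase of CSF1 and IL-34, made by monocytes, macrophages and osteoclasts, and lies on chromosome 18, 61265226 to 61291803, plus strand. It was the most abundant of the 7 messages in every group. The metaphysis values were 51.9, 54.2 and 58.0 RPKM in WT and 90.4, 77.8 and 90.0 RPKM in cKO. No library of one group came near the other. The log2 difference was 0.65 ± 0.095 (limma, Benjamini-Hochberg adjusted p = 0.0133), and the call was lost with WT replicate 1, WT replicate 2 or cKO replicate 3 left out, with adjusted p up to 0.0567.

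Csf1r in the diaphysis was at 28.5, 54.3 and 61.2 RPKM in WT and at 31.0, 57.3 and 54.7 RPKM in cKO. Replicate 1 was low in both groups and the rest lay together. On the log2 scale cKO differed from WT by 0.011 ± 0.35, by -0.33 without WT replicate 1 and by 0.30 without cKO replicate 1. The ratio of Csf1 to Csf1r overlapped between genotypes in both regions.

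**Figure D4:**
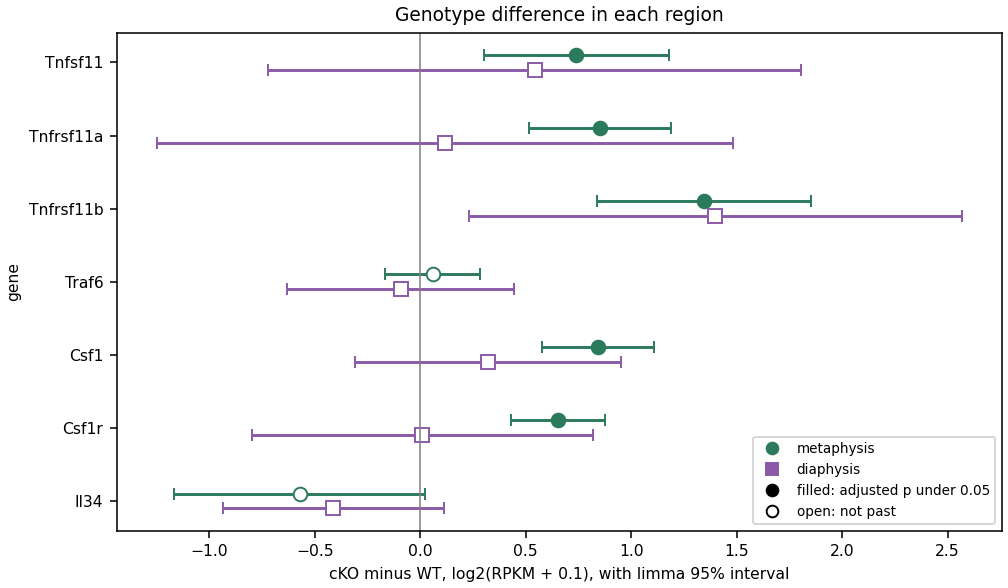
Difference of cKO from WT on the log2(RPKM + 0.1) scale for each of the 7 genes, with limma's 95% interval, in metaphysis (circles) and diaphysis (squares), filled where adjusted p was under 0.05. The metaphysis intervals of 5 genes lie above 0, and the diaphysis intervals are wider and, except for Tnfrsf11b, cross 0.

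In the diaphysis, then, 0 of the 7 genes were called with limma and Benjamini-Hochberg adjustment, and 1, Tnfrsf11b, had an unadjusted p under 0.05, as did 86 of the 12540 genes tested. Without WT replicate 1 the number of called genes was again 0. Dlx3, the deleted gene, was not called in the diaphysis either, at -2.52 ± 0.50 with an unadjusted limma p of 0.00118. A diaphysis gene without a call is therefore not shown to be unchanged. The median log2 difference of the 7 genes was 0.12, beside 0.0022 for all genes. Whether the genotype difference itself differed between regions was asked in a fit of all 12 libraries. Of 12321 genes, 0% were called in that contrast by limma with Benjamini-Hochberg adjustment (495 had an unadjusted p under 0.05), and none of the 7 was (adjusted p = 0.908 and above). The metaphysis difference exceeded that of the diaphysis by 0.52 ± 0.31 for Csf1, 0.64 ± 0.40 for Csf1r and 0.74 ± 0.67 for Tnfrsf11a on the log2 scale. For Tnfrsf11b the contrast was -0.056, with a 95% interval from -1.39 to 1.28.

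That contrast depended on WT replicate 1 of the diaphysis. Without it limma called 247 genes, and the differences of Csf1, Tnfrsf11a and Csf1r were 0.82, 1.39 and 0.98, with Benjamini-Hochberg adjusted p = 0.0562, 0.0725 and 0.0758. Tnfsf11 then stood at 0.87 (limma adjusted p = 0.125).

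The levels of the 7 genes spanned a wide range. In WT metaphysis Csf1r (54.7 ± 3.08 RPKM) and Csf1 (19.7 ± 2.27) stood above Traf6 (7.02 ± 0.47), and Il34 (3.78 ± 0.97), Tnfrsf11a (3.33 ± 0.31), Tnfsf11 (3.28 ± 0.79) and Tnfrsf11b (3.07 ± 0.70) lay within their spread of each other. In cKO metaphysis Tnfrsf11b (7.97 ± 1.99) lay beside Traf6 (7.31 ± 0.34) and Il34 (2.51 ± 0.65) was the lowest. The regions come from tables that were normalized separately, so a level is not tested across them. The WT means of the diaphysis were 48.0 ± 17.2 for Csf1r, 14.6 ± 4.74 for Csf1, 6.50 ± 0.69 for Traf6, 4.24 ± 0.21 for Il34, 3.62 ± 2.48 for Tnfrsf11a, 3.22 ± 1.93 for Tnfsf11 and 2.78 ± 1.65 for Tnfrsf11b. For every gene the ranges of the WT libraries of the 2 regions overlapped. The cKO means of the diaphysis were 47.7 ± 14.5 for Csf1r, 17.7 ± 2.72 for Csf1, 6.48 ± 1.35 for Tnfrsf11b, 6.22 ± 1.61 for Traf6, 4.07 ± 1.19 for Tnfsf11, 3.39 ± 1.24 for Tnfrsf11a and 3.22 ± 0.80 for Il34.

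Markers of the cells that make and receive these signals moved in the metaphysis too, where 7.51% of all genes tested rose and 3.89% fell. Of 18 osteoclast markers 12 rose and 0 fell, among them Acp5 (1060 to 2026 RPKM), the tartrate-resistant phosphatase, and Ctsk (889 to 1430), the collagenase cathepsin K, and their summed level was 3076 to 3715 RPKM in WT and 4990 to 5608 in cKO. Car2, a carbonic anhydrase of osteoclasts and red cells, went the other way, from 535 ± 52.9 to 311 ± 87.3 RPKM with no overlap, and did not pass the test (-0.82 ± 0.22, limma, Benjamini-Hochberg adjusted p = 0.0525). Of 15 osteoblast markers 10 rose and 0 fell, with sums of 15197 to 19566 and 23558 to 25271 RPKM. Of 17 monocyte and macrophage markers 1 (Cd68) rose and 1 (Vcam1) fell, and the sums of 1138 to 1815 and 1140 to 1476 overlapped. Of 16 chondrocyte and growth plate markers 9 rose and 0 fell, with a median difference of 1.21. Their sums were 873 to 1130 RPKM in WT and 1537 to 2459 in cKO. Of 11 osteocyte markers tested 3 rose and 1 fell, of 15 B lymphoid markers 8 fell, and of 10 erythroid markers 4 fell. Of 11 endothelial markers 6 rose and 0 fell, and 1 of 10 skeletal muscle markers and 1 of 8 T and NK lymphoid markers fell. Of 13 neutrophil and 11 stromal and adipocyte markers limma called 0, with 0 and 2 at an unadjusted p under 0.05. Of all 12641 genes tested, 3862 had an unadjusted p under 0.05. All osteoclast, osteoblast and monocyte markers passed the filter in both regions, and none of these lists had a call in the diaphysis. The osteocyte list had no diaphysis call either, but its median difference there was 0.68. Of its 11 genes tested 4 had cKO above WT without overlap, where 2.24% of all genes did. Its diaphysis sums were 207 to 628 RPKM in WT, lowest in replicate 1, and 648 to 712 in cKO. The part of these shifts in the levels of the 7 genes was not tested.

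The members were also read against the mean log2 level of a marker list in the same library. In the metaphysis the difference of Csf1r from the osteoclast list changed by 0.028 between WT and cKO and that of Tnfrsf11a by 0.23, while against the monocyte list they changed by 0.74 and 0.94. Tnfsf11 changed by -0.030 and Csf1 by 0.071 against the osteoblast list, and Tnfrsf11b by 0.57, where its WT and cKO libraries overlapped. The osteoclast and osteoblast lists did not set these genes apart by cell type. Tnfrsf11a changed by 0.084 and Csf1r by -0.12 against the osteoblast list, and Tnfsf11 by 0.12 and Csf1 by 0.22 against the osteoclast list. Il34 changed by -1.34 against the osteoblast list. Against the osteocyte list Tnfsf11 changed by 0.30, Csf1 by 0.40 and Tnfrsf11b by 0.90, each without overlap. Tnfrsf11a (0.41) and Csf1r (0.21) overlapped there, and Traf6 (-0.38) and Il34 (-1.01) changed the other way. Tnfrsf11b changed by 0.72 against the osteoclast list, also without overlap. In the diaphysis Tnfrsf11b changed by 1.06 against the osteoblast list, from -5.90 ± 0.14 to -4.83 ± 0.062 (SD, n = 3), a wider gap than the spread of either group. Against the osteocyte list the diaphysis change of Tnfrsf11b was 0.74, also without overlap, and those of Tnfsf11 and Csf1 were -0.11 and -0.34. These are differences of log2 levels, given without a test.

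Downstream of RANK most of the chain did not pass the test. Of 29 genes of the RANK signal chain tested in the metaphysis, 4 rose and 0 fell, and 25 did not pass. The list's median difference was -0.0089, and the share called over all genes was the 11.4% given above. Among those that rose were transcription factors at its end. Nfatc1, the master regulator of osteoclast genes, went from 19.1 ± 1.34 to 30.8 ± 3.98 RPKM (0.68 ± 0.11, limma, Benjamini-Hochberg adjusted p = 0.0171). Prdm1, a repressor that osteoclast precursors need to mature, rose by 0.73 ± 0.17 (limma adjusted p = 0.0403). Jdp2, an AP-1 family member, also rose. The kinases and NF-kB subunits between TRAF6 and these factors were not called, as for Map3k7 (TAK1) at 12.6 ± 0.34 and 12.8 ± 0.51 RPKM.

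Among 11 genes of the immunoreceptor co-stimulation that osteoclasts need beside RANK, 1 rose and 2 fell, where 7.51% of all genes tested rose and 3.89% fell. Oscar, an osteoclast receptor for collagen, rose from 11.3 ± 2.38 to 22.0 ± 1.95 RPKM (0.97 ± 0.16, limma, Benjamini-Hochberg adjusted p = 0.0162). Blnk, an adaptor of B cells and osteoclasts, fell by 0.60 ± 0.15 (limma adjusted p = 0.0427), and the kinase Tec fell by 0.37 ± 0.086 (limma adjusted p = 0.0380). Nfatc1 and Oscar also stand in the osteoclast list. Blnk and Tec are also expressed in B lymphoid cells, whose markers fell, as given above, and the part of those cells was not tested.

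Of 17 genes of the CSF1R signal chain, 0 were called in the metaphysis by limma with Benjamini-Hochberg adjustment. An unadjusted p under 0.05 was found for 4 of them, and for 3862 of the 12641 genes tested. The median log2 difference was -0.20. The genes with the smallest p were the phosphatases Ptpn6 (SHP-1), at 53.2 ± 4.57 RPKM in WT and 39.4 ± 4.72 in cKO (limma adjusted p = 0.0511), and Inpp5d (SHIP1), at 23.3 ± 1.25 and 18.7 ± 1.60 (limma adjusted p = 0.0715). Both are known as brakes on signals of this kind.

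The list of other partners of the ligands and the decoy also held Plxnb1, which is not such a partner. It gave 5 genes higher, Plxnb1 among them, and 0 lower of 11 tested, where 7.51% of all genes tested were higher and 3.89% lower. The list's median was 0.48. Mmp14, a membrane protease that can shed RANKL, rose from 75.6 ± 10.0 to 139 ± 8.22 RPKM (0.88 ± 0.11, limma, Benjamini-Hochberg adjusted p = 0.0115). Ptprz1, a receptor phosphatase that can bind IL-34, rose by 1.12 ± 0.15 (limma adjusted p = 0.0117), and Plxnb1, a semaphorin receptor of osteoblasts, by 1.00 ± 0.16 (limma adjusted p = 0.0161). Lgr4, a further receptor reported for RANKL, and Sdc1, a proteoglycan that can bind IL-34 and OPG, were the other 2.

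Genes that govern RANKL and OPG in bone-forming cells gave 6 higher and 0 lower of 23 tested, beside the same 7.51% higher and 3.89% lower of all genes. Their median was 0.34. Vdr, the vitamin D receptor, went from 16.8 ± 3.38 to 55.5 ± 12.9 RPKM (1.71 ± 0.20, limma, Benjamini-Hochberg adjusted p = 0.0101), and Pth1r, the parathyroid hormone receptor, from 55.6 ± 7.93 to 153 ± 16.3 RPKM (1.46 ± 0.13, limma adjusted p = 0.00554). Dkk1, a secreted Wnt inhibitor, rose by 1.27 ± 0.24 (limma adjusted p = 0.0230). Lifr, Ctnnb1 (beta-catenin) and Runx2 were the others called. Pth1r and Runx2 also stand in the osteoblast list and Dkk1 in that of osteocytes.

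In the diaphysis 0 genes of these 5 lists were called by limma with Benjamini-Hochberg adjustment. An unadjusted p under 0.05 was found for 3, all among the regulators, and for 86 of the 12540 genes tested. The 3 regulators included Dkk1, at 9.12 ± 4.96 RPKM in WT and 26.3 ± 4.95 in cKO, and Vdr, at 11.4 ± 7.61 and 29.3 ± 6.29. The third was Sost, the osteocyte Wnt inhibitor sclerostin, at 34.3 ± 10.5 and 72.8 ± 41.5, named after its values were seen. The genes of smallest p in the RANK signal chain were Tab1 (8.71 ± 0.43 and 10.4 ± 1.07 RPKM), a TAK1 partner, and Traf5 (6.55 ± 0.74 and 5.58 ± 0.13). In the co-stimulation list they were the receptor Trem2 (2.49 ± 0.89 and 3.65 ± 0.60) and the adaptor Lcp2 (19.0 ± 4.01 and 15.6 ± 2.88), and in the CSF1R chain Pik3r1 (27.7 ± 1.34 and 24.4 ± 5.06), a PI3-kinase subunit, and Inpp5d (25.0 ± 3.53 and 22.7 ± 4.97). In the list of other partners they were Plxnb1 (2.72 ± 1.49 and 3.85 ± 0.59) and Ptprz1 (5.24 ± 3.70 and 7.22 ± 1.94). List medians lay between -0.055 and 0.13.

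**Figure D5:**
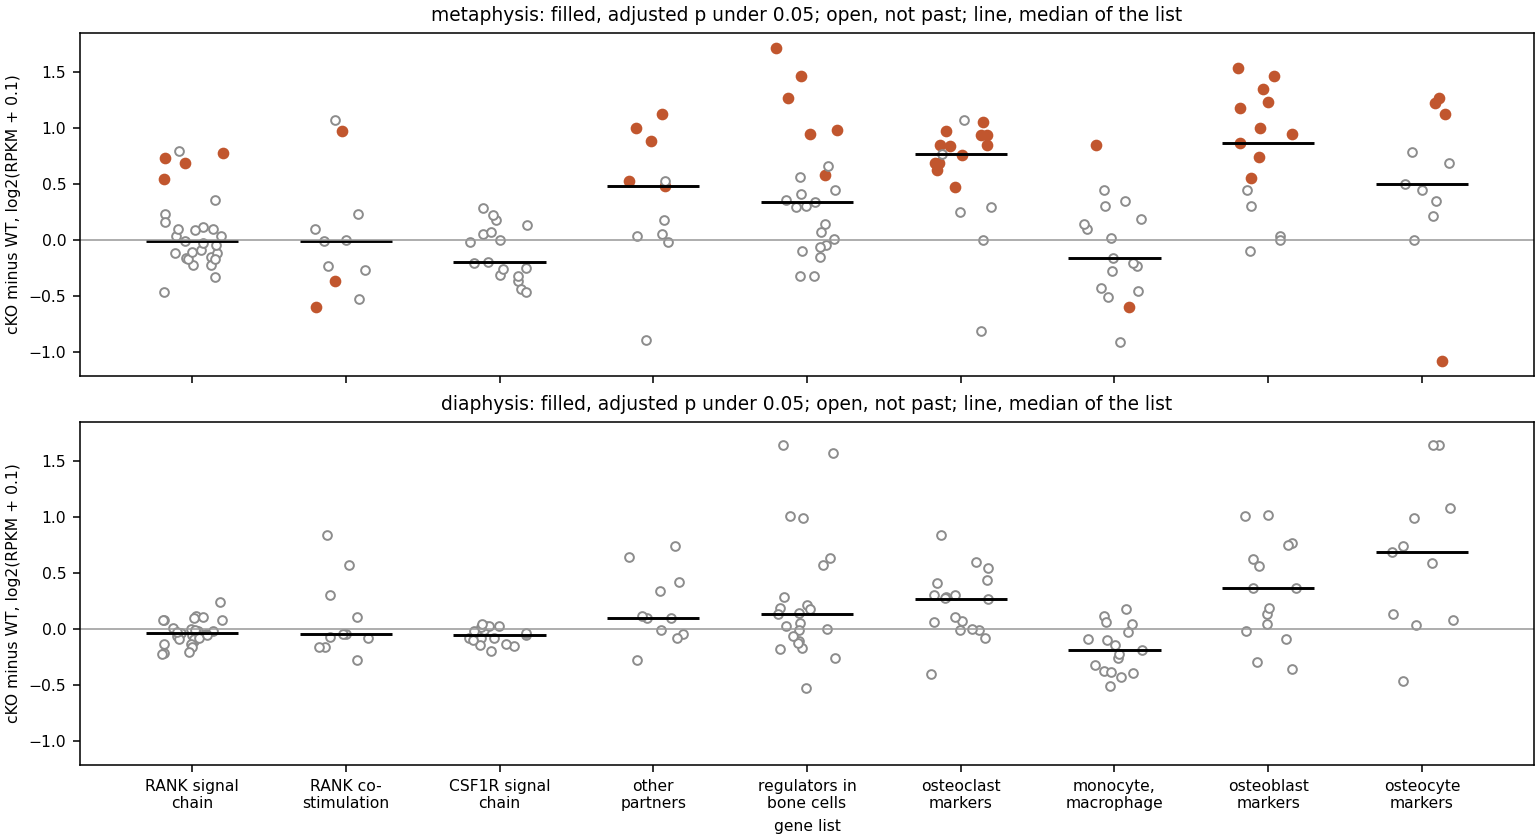
Difference of cKO from WT on the log2(RPKM + 0.1) scale for each tested gene of 9 lists, in metaphysis and diaphysis, filled where adjusted p was under 0.05, with the list's median as a line. In the metaphysis the osteoclast (12 of 18) and osteoblast (10 of 15) lists each hold more calls than any other list, and 0 of the 17 CSF1R signal genes are filled. The other lists have fewer.

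Over the 12 libraries, centred within each region, the genes whose levels ran most like a member's were ranked by Pearson correlation among 12321 genes. Libraries share their cell make-up and genotype, so these values describe the data only. Csf1 ran closest to Ctnnb1 (r = 0.991), Tns3 (0.986) and Bmp8a (0.983). Csf1r ran closest to Plod3 (r = 0.991), Dpp7 (0.990) and Ctsz (0.986), and Tnfrsf11a to Arhgef10 (0.984), Sbf2 (0.983) and Itgav (0.982). Tnfrsf11b ran closest to Podxl (r = 0.982), Ptgis (0.976) and Vdr (0.972), and Tnfsf11 to Whrn (0.978), Nmb (0.975) and Kcnk1 (0.971). Traf6 ran closest to Tcf12 (r = 0.978), Apc (0.975) and Usp42 (0.972), and Il34 to Obfc2a (0.946), Lrrfip1 (0.925) and Sap25 (0.920). Within the axis the closest pairs were the receptors Tnfrsf11a and Csf1r (r = 0.943), and Csf1 with Tnfrsf11b (0.912) and Tnfsf11 (0.902). Il34 ran against Csf1 (r = -0.46) and Tnfsf11 (-0.41), more so in the metaphysis (-0.60 and -0.68) than in the diaphysis (-0.22 and -0.27).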

How the data were processed

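The 12 libraries were sequenced on an Illumina HiSeq. Per the labels' protocols, RNA came from Trizol and the kit was TruSeq RNA. It does not keep strand, so a gene and an antisense partner cannot be told apart. The authors deposited 1 table per region, in RPKM per RefSeq transcript, per the file headers. Listed in the submitters' processing notes are mm9, Partek 6.6, Bowtie 0.12.7.0, TopHat 1.3.2 and CASAVA 1.8.2. Neither the annotation release nor the handling of reads that transcripts share is given in the sources used here. RPKM corrects for length and depth, not for composition, so a larger globin share lowers other genes.

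Groups were taken from the labels, and replicate numbers follow record order and pair nothing. Transcripts were summed per symbol. A gene was tested in a region if 3 of its 6 libraries reached 1 RPKM, and log2(RPKM + 0.1) was fitted with limma 3.58.1 (R 4.3.3) per region, and over all 12 libraries for the difference between regions. This scale understates fold changes of low genes. Adjusted p is Benjamini-Hochberg, 2-sided, threshold 0.05. The ratio of Tnfsf11 to Tnfrsf11b was tested by exact permutation. The fit was tested on simulated data. Depth was estimated from low values, of which 72.8% to 78.6% lay within 0.1 of a whole read where chance gives 20%, too few to rebuild counts. Approximate reads of a gene follow from its longest transcript. Gene positions came from the annotation of NCBIM37. Promoters came from RefSeq, and 4 of 7 symbols matched.

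Named genes are the 7 members and Dlx3. From each pathway list, region and direction they include the 3 called genes of largest change without overlap, or else the 2 with the smallest p. The 3 genes most correlated with each member and up to 3 leading markers of a cell type list are also named. Jdp2, Lifr, Ctnnb1, Runx2, Lgr4, Sdc1, Cd68, Vcam1, Map3k7, Car2 and Sost were named after their values were seen. A called gene of the RANK signal chain is not reported here. The members and lists were chosen with earlier results of these data known. Alternatives were the pseudocount, the filter, the transcript, the scaling, the variance model, array weights, a spread shared by all 12 libraries, and leaving out each library. Python 3.11.15, pandas 2.3.3, numpy 2.4.6, scipy 1.17.1 and matplotlib 3.10.9 were used.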

Additional observations from a re-analysis of the deposited data

How the results depend on the processing

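The metaphysis call count of 1441 became 789 with no filter on low values, 2813 with limma's array weights and 7 when all 12 libraries shared 1 estimate of spread, and 105 to 1418 with 1 library left out (105 without cKO replicate 3, 188, 243 and 672 without WT replicates 1, 2 and 3). The diaphysis count of 0 became 58 with array weights. The count for the difference between regions became 2 with no filter, 2394 with array weights and 0 to 247 with 1 library left out. The spread shared by all 12 libraries took in the wider diaphysis spread, and no member was called in the metaphysis under it (limma adjusted p = 0.232 to 0.883). Tnfrsf11b, Csf1 and Csf1r still kept an unadjusted limma p of 0.00925, 0.00280 and 0.0395. The array weights did not fully converge, and the cause of the other shifts was not tested. Tnfsf11 also missed the threshold with no filter (limma adjusted p = 0.0990), with a filter at 0.3 RPKM (0.0519) and with the highest transcript in place of the sum (0.0561). Both rescalings kept all 5 metaphysis calls. With array weights the diaphysis difference of Traf6 turned to 0.057 and that of Csf1r to -0.017, and the difference between regions of Tnfrsf11b turned to 0.15, as it did to 0.048 with a pseudocount of 1. Under the same weights that contrast called Csf1 (0.56, limma adjusted p = 0.0269) and Csf1r (0.70, limma adjusted p = 0.0166). With 1 library left out, diaphysis differences ran from -0.13 to 0.89 for Tnfsf11, -0.54 to 0.63 for Tnfrsf11a, -0.21 to 0.14 for Traf6 and -0.33 to 0.30 for Csf1r. Differences between regions ran from -0.45 to 0.56 for Tnfrsf11b, -0.15 to 0.87 for Tnfsf11, -0.083 to 0.27 for Traf6 and -0.39 to 0.012 for Il34. The log2 ratio of Tnfsf11 to Tnfrsf11b differed between cKO and WT by -0.79 to -0.33 in the metaphysis and -1.03 to -0.67 in the diaphysis over its other settings. Its groups do not overlap, which fixes the sign when a library is left out. No paired analysis was possible because the labels give no replicate numbers or pairs.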
